A study of Homo sapiens with 6 samples.

Results

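The cleavage and polyadenylation factors are the proteins that cut a nascent pre-mRNA at the 3′ end of its last exon and prepare the new end for its poly(A) tail. The 10 genes described here, CPSF1, CPSF2, CPSF3, CPSF4, CPSF6, NUDT21, CSTF1, CSTF2, CSTF3 and PCF11, were taken by symbol as subunits of the CPSF, CstF, CFI and CFII complexes, and all 10 were present among the 28491 genes of the count table and the 28244 genes of the FPKM table. They were compared between 2 groups of HCT116 cells, an established human colorectal carcinoma line. The control group (NC) received a control plasmid, and the overexpression group (RBM47-OE) received a plasmid that carried the transcript of RBM47, an RNA-binding protein known to act in splicing and RNA editing. Both groups were transfected with Lipofectamine, were harvested 48 h later and gave 3 libraries each of poly(A) RNA. The exogenous transcript was expressed transiently from the plasmid's promoter, and only 1 cell line was used. The labels name a pcDNA3.1-3xFlag-RBM47 plasmid and DMEM, whereas pIRES-hrGFP-1a and McCoy's 5A are given in the methods. Nothing states that the replicates were separate cultures, so the p-values measure the spread between these libraries, which may be technical.

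Pre-mRNA 3′ end formation starts from short RNA elements. The cleavage and polyadenylation specificity factor (CPSF) recognizes the AAUAAA hexamer and contains the endonuclease, the cleavage stimulation factor (CstF) binds the GU-rich sequence downstream of the cut, cleavage factor I (CFI) binds UGUA elements upstream of it, and cleavage factor II (CFII) links cleavage to transcription termination. Most human genes have several such sites, and the relative amounts of these factors are known to affect which site is used. Gene-level counts, as used here, do not show the site that was used.

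The factors' own transcripts carry the element that CPSF reads. For 9 of the 10 genes, a window of 30 bases from the last 60 bases of the canonical transcript is shown, where that transcript is annotated to end. Other annotated ends of these genes were not searched. Sequences are from the GRCh38 genome with GENCODE 44 gene models, written 5′ to 3′ on the transcript's strand as DNA, and capitals mark the hexamer.
CPSF2, chr14:92172113-92172142, plus strand: tagcaattgtgaAATAAAcagattctgaag
CPSF3, chr2:9473062-9473091, plus strand: tttgttacctaaAATAAAatgcattcgttt
CPSF4, chr7:99457343-99457372, plus strand: tttatgaaatggATTAAAgcttgtttttta
CPSF6, chr12:69274324-69274353, plus strand: tcttgtattgaaAATAAAacaaacttttga
NUDT21, chr16:56429138-56429167, minus strand: tattgtcatttcAATAAAaaatatttgaaa
CSTF1, chr20:56406330-56406359, plus strand: cgtgatttctgaAATAAActttatatacaa
CSTF2, chrX:100841486-100841515, plus strand: tgctcaagatgaAATAAAaacagaaatcaa
CSTF3, chr11:33084586-33084615, minus strand: agtcctttaaaaAATAAAaggattcagaaa
PCF11, chr11:83185761-83185790, plus strand: attcatacatgtAATAAAtagaatgatgaa
AATAAA was found in 8 of these genes and ATTAAA in CPSF4. Neither hexamer was found in the last 60 bases of CPSF1, on the transcript's strand, which was the only strand searched. Over 16216 canonical coding transcripts, 66.7% held AATAAA in their last 60 bases, 14.4% held ATTAAA only, and 3057 transcripts held neither. The 3′ UTRs of the 10 factors had a median length of 886.5 bases and a median GC content of 34.6%, against 1149 bases and 43.1% over all of these transcripts. They ranged from 84 bases in CPSF3 to 10401 bases in CPSF2.

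The libraries held 26792409 to 35477983 counts on genes. The FPKM (fragments on a gene, scaled to the gene's length and the library's mapped fragments) of RBM47 was 1.91 to 2.33 in NC and 127.0 to 131.3 in RBM47-OE, a log2 fold change of 5.90 with a standard error of 0.096 and an adjusted p of 1.7e-25 by edgeR's quasi-likelihood test. All 5 epithelial markers checked were present in every library, from CDH1 with an FPKM of at least 12.9 and EPCAM with at least 75.2 to KRT18, KRT8 and KRT19 with at least 274.0, 443.4 and 870.2, while the endothelial marker PECAM1 reached at most 0.03 and the fibroblast marker COL1A1 at most 1.72. The leukocyte marker PTPRC had no FPKM value under that symbol. The change of a gene in RBM47-OE followed the GC content of its exons. Among 10 bins of the tested genes by GC content, the median log2 fold change was 0.38 in the lowest bin, with a median GC content of 37.4%, and -0.23 in the highest, with 64.0%. RBM47-OE replicate 1 showed the smallest changes of the 3 overexpression libraries for several of the factors, and the calls made without it are given after the single genes.

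In NC cells the 10 factors differed in level by more than the spread between libraries. CPSF1, the large scaffold subunit of CPSF, was the highest at an FPKM of 26.6 ± 0.773 (SD, n = 3), which exceeded 91.3% of the 16368 protein-coding genes with an FPKM value. NUDT21, the UGUA-binding subunit of CFI, followed at 21.7 ± 0.824 and CPSF3, the endonuclease, at 14.7 ± 0.413. PCF11, the CFII subunit that binds the C-terminal domain of RNA polymerase II, was the lowest at 2.25 ± 0.0656, and exceeded 48.0% of them. Between these lay CSTF2 at 12.6 ± 0.659, CPSF4 at 10.1 ± 0.475, CPSF6 at 8.45 ± 0.482, CSTF3 at 7.60 ± 0.204, CSTF1 at 6.25 ± 0.462 and CPSF2 at 4.19 ± 0.262. The ranges of neighbours in this order did not overlap in NC.

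The order was different in RBM47-OE, and the ranges of some neighbours overlapped. NUDT21 was at an FPKM of 25.4 ± 1.40 (SD, n = 3) and CPSF1 at 25.2 ± 1.96, and their ranges overlapped. CPSF3 followed at 17.2 ± 2.63 and CSTF2 at 12.1 ± 0.918. CSTF3 stood at 10.2 ± 1.53, CPSF6 at 8.96 ± 0.374 and CPSF4 at 8.91 ± 0.779, and from CSTF2 to CPSF4 each gene's range overlapped with that of the next. CSTF1 at 7.21 ± 0.672, CPSF2 at 5.71 ± 0.810 and PCF11 at 2.71 ± 0.346 took the last places, as in NC.

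**Figure D1:**
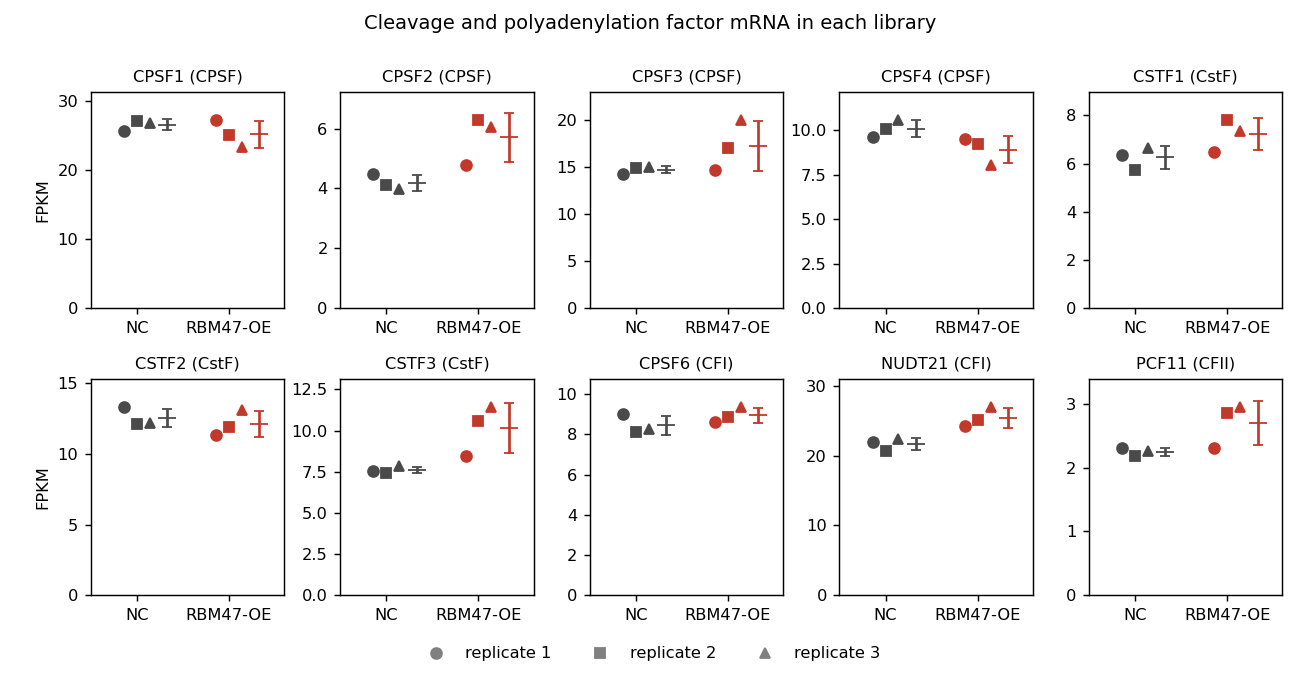
FPKM of each factor (vertical axis, linear, starting at 0, with its own scale in every panel) in the 3 NC and the 3 RBM47-OE libraries. Points are libraries, with the shape marking the replicate, and the bars give the mean and SD. CPSF2, CSTF3 and NUDT21 lie higher in every RBM47-OE library than in any NC library, CPSF4 lies lower, and the other 6 genes overlap.

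The first question was whether the factors' mRNA differed between RBM47-OE and NC. CPSF2 and CSTF3 rose and CPSF4 fell at a Benjamini-Hochberg adjusted p under 0.05 from edgeR's quasi-likelihood test, and the other 7 factors did not pass. Of the 16260 genes tested, 35.9% passed in either direction, 19.1% higher and 16.9% lower, so that 3 of 10 lies near the share of all genes. The log2 fold changes of the 10 factors ran from -0.25 to 0.37 with a median of 0.14, against a median of 0.00 over all tested genes, and 7 were above 0. The study itself used an unadjusted p under 0.01 together with a fold change over 1.5, which 2.38% of all genes met. None of the 10 factors met both with edgeR or with DESeq2. An unadjusted p under 0.05 was reached by 5 factors with edgeR and 4 with DESeq2. Over all 16260 tested genes, 7214 reached it with edgeR and 6867 with DESeq2. The normalised values of the 3 RBM47-OE libraries lay entirely above or below those of the 3 NC libraries for 4 factors, CPSF2, CSTF3, NUDT21 and CPSF4, while 46.5% of all tested genes showed such a separation. Since RNA of whole cultures was sequenced, fewer cells carrying an mRNA and less of it per cell cannot be told apart.

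The same counts were fitted again after each library's trend with GC content had been removed (the GC offset), which takes out any change that follows GC content, real or technical. In that fit 14.6% of the 16229 genes with a GC value passed in either direction, 6.1% higher and 8.55% lower. None of the 10 factors was higher, CPSF6 and NUDT21 were lower, and the median log2 fold change was -0.03. The 2 lower genes were also the only factors with an unadjusted p under 0.05 in this fit, against 4519 of the 16229 genes. CPSF2, CSTF3 and CPSF4, which had passed without the offset, did not pass with it. Whether the GC trend came from the cells or from library preparation was not tested.

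**Figure D2:**
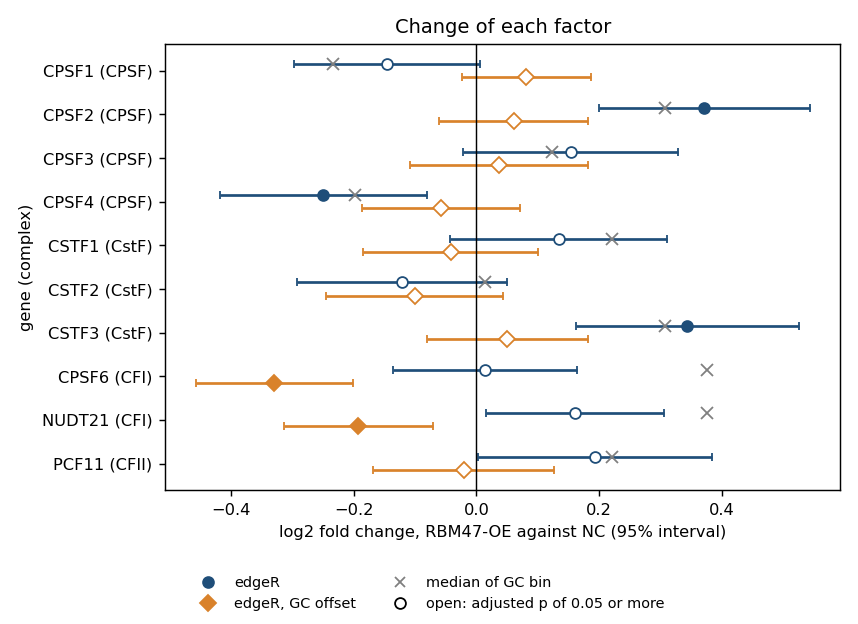
Log2 fold change of each factor, RBM47-OE against NC (horizontal axis), with its 95% interval, from edgeR (circles) and from edgeR with the GC offset (diamonds). Filled symbols have an adjusted p under 0.05 and crosses give the median of the GC bin of each gene. CPSF2, CPSF4 and CSTF3 are filled without the offset and lie near their crosses, and CPSF6 and NUDT21 are filled with it.

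CPSF holds the endonuclease and the subunits around it. CPSF2, the partner of the endonuclease in the cleavage module (ENSG00000165934, chromosome 14, 92121969 to 92172145, plus strand, 16 exons), had 70.9, 64.6 and 62.4 CPM (counts scaled to library size by TMM) in NC, and 73.2, 91.8 and 91.0 in RBM47-OE. The groups did not overlap, but RBM47-OE replicate 1 lay much nearer to NC than the other 2. The difference was 0.37 on the log2 scale (standard error 0.084, adjusted p = 0.0013), with an interval from 0.20 to 0.54. CPSF2 kept an adjusted p of at most 0.017 whichever library was left out. Its exons have a GC content of 39.4%, the genes of its GC bin had a median log2 fold change of 0.31, and with the GC offset its own value was 0.06 (adjusted p = 0.55).

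CPSF4, a zinc finger subunit that contacts the AAUAAA hexamer (ENSG00000160917, chromosome 7, 99438922 to 99457373, plus strand, 8 exons), went the opposite way. It had 47.7, 49.7 and 52.1 CPM in NC and 45.6, 42.2 and 37.8 in RBM47-OE. The groups did not overlap, but RBM47-OE replicate 1 lay close to the lowest NC library. The log2 fold change of CPSF4 was -0.25 (standard error 0.082, adjusted p = 0.019). This call was lost without NC replicate 2 (adjusted p = 0.07), NC replicate 3 (0.11) or RBM47-OE replicate 3 (0.092), and with library totals in place of TMM (0.087). The exonic GC content of CPSF4 is 57.0%, the median of its GC bin was -0.20, and with the GC offset the value was -0.06 (adjusted p = 0.59). CPSF4 shares 3.69% of its exonic bases with ATP5MF-PTCD1 on the opposite strand, which had 496 to 963 counts, and the use of strand in counting is not given in the sources used here.

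The other 2 CPSF subunits did not pass. CPSF3 (ENSG00000119203, chromosome 2, 9423651 to 9473101, plus strand, 18 exons) had 61.2, 63.6 and 64.1 CPM in NC and 61.3, 67.5 and 81.5 in RBM47-OE. Its RBM47-OE libraries were spread widely, and the lowest lay within the NC range. This gave CPSF3 a log2 fold change of 0.15 (standard error 0.085, adjusted p = 0.17), and 0.04 with the GC offset (adjusted p = 0.79).

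CPSF1 (ENSG00000071894, chromosome 8, 144393229 to 144409335, minus strand, 38 exons) has the highest exonic GC content of the 10 factors, 63.8%. It had 181.8, 190.7 and 188.7 CPM in NC and 186.6, 163.7 and 156.8 in RBM47-OE. Replicate 1 of RBM47-OE was inside the NC range and the other 2 were below it. CPSF1 had a log2 fold change of -0.15 (adjusted p = 0.13) with an interval from -0.30 to 0.0054, and the median of its GC bin was -0.23. The GC offset turned the value to 0.08 (adjusted p = 0.32).

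**Figure D3:**
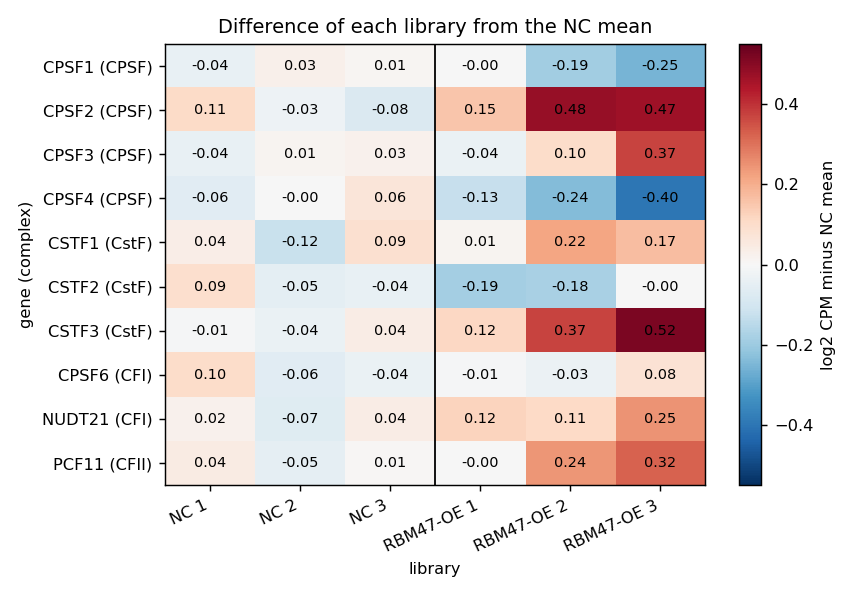
Log2 CPM of each factor (rows, with its complex) in each of the 6 libraries (columns) minus the mean of the 3 NC libraries, as colour and printed value. In RBM47-OE replicates 2 and 3 CPSF2 and CSTF3 are well above the NC mean and CPSF4 and CPSF1 are below it, and RBM47-OE replicate 1 lies nearer to 0 for each of these 4 genes.

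CstF is built on CSTF3, the scaffold that bridges CSTF1 and the RNA-binding CSTF2. CSTF3 (ENSG00000176102, chromosome 11, 33077188 to 33162371, minus strand, 21 exons) had 39.7, 38.8 and 40.9 CPM in NC and 43.1, 51.5 and 57.1 in RBM47-OE, and the groups did not overlap. The NC libraries were close together and the RBM47-OE libraries were not. CSTF3 thus had a log2 fold change of 0.34 (standard error 0.089, adjusted p = 0.0038), with an interval from 0.16 to 0.53, and its adjusted p was at most 0.032 with each library left out. Its exonic GC content is 40.2%, the median of its bin was 0.31, and with the GC offset the value was 0.05 (adjusted p = 0.66). CSTF3 shares 8.69% of its exonic bases with TCP11L1 and 5.83% with LINC00294, both on the opposite strand, which had at least 276 and 190 counts in each library.

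CSTF2 and CSTF1 did not pass, and their differences were of opposite sign. CSTF2, which binds the GU-rich element (ENSG00000101811, chromosome X, 100820391 to 100841520, plus strand, 14 exons), had 43.1, 39.0 and 39.2 CPM in NC and 35.5, 35.7 and 40.3 in RBM47-OE. RBM47-OE replicate 3 lay within the NC range and the other 2 lay below it. For CSTF2 the log2 fold change was -0.12 (adjusted p = 0.27), and -0.10 with the GC offset (adjusted p = 0.37), while the median of its GC bin was 0.01. CSTF2 has a related gene, CSTF2T, with counts of its own. Reads that map to both genes would not enter these uniquely mapped counts.

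CSTF1 (ENSG00000101138, chromosome 20, 56392371 to 56406362, plus strand, 6 exons) had 35.6, 31.8 and 36.9 CPM in NC and 35.1, 40.3 and 39.1 in RBM47-OE. RBM47-OE replicate 1 again lay within the NC range. For CSTF1 the log2 fold change was 0.13 (adjusted p = 0.24), below the median of 0.22 of its GC bin, and the GC offset turned it to -0.04 (adjusted p = 0.74).

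CFI is a tetramer of NUDT21 and a larger subunit, CPSF6 or CPSF7. With the GC offset, CPSF6 and NUDT21 were lower relative to genes of similar GC content. CPSF7 did not pass in that fit (-0.14, adjusted p = 0.11), while the CPSF subunit FIP1L1 was lower (-0.36, adjusted p = 0.00047). CPSF6 (ENSG00000111605, chromosome 12, 69239569 to 69274358, plus strand, 10 exons) had 84.5, 75.5 and 76.9 CPM in NC and 78.4, 77.2 and 83.5 in RBM47-OE. The groups overlapped throughout, and the log2 fold change was 0.01 (adjusted p = 0.91) with an interval from -0.14 to 0.16. The exons of CPSF6 have a GC content of 37.5%, and the genes of that bin had a median log2 fold change of 0.38. With the GC offset, the log2 fold change of CPSF6 was -0.33 (standard error 0.062, adjusted p = 0.0015) with an interval from -0.46 to -0.20. After the same adjustment the 3 RBM47-OE libraries lay -0.20, -0.43 and -0.37 from the NC mean on the log2 scale, each below every NC library. On that scale NUDT21 also lay below every NC library, CPSF1 lay above every NC library, and 7 factors overlapped. The share of all genes that separated on that scale was not computed. Leaving out 1 library at a time, the fit with the GC offset gave -0.40 to -0.28 for CPSF6 and adjusted p-values from 0.00019 to 0.016.

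NUDT21 (ENSG00000167005, chromosome 16, 56429133 to 56452199, minus strand, 7 exons) had 151.5, 142.3 and 153.4 CPM in NC and 162.2, 160.6 and 177.0 in RBM47-OE. The groups did not overlap, yet the log2 fold change of 0.16 (standard error 0.071, adjusted p = 0.077) did not pass. NUDT21 passed as higher with library totals in place of TMM (0.22, adjusted p = 0.012) and with DESeq2 on all genes (0.17, adjusted p = 0.047). The same held for limma on log2(FPKM + 1) (0.22, adjusted p = 0.026) and log2(FPKM + 0.1) (0.23, adjusted p = 0.026). It also held for edgeR without RBM47-OE replicate 1 (0.19, adjusted p = 0.017). The exonic GC content of NUDT21 is 37.1%, the lowest of the 10 factors, and the median of its bin was 0.38. With the GC offset the value was -0.19 (standard error 0.059, adjusted p = 0.032), and the libraries lay -0.07, -0.30 and -0.21 from the NC mean. With 1 library left out in turn the adjusted p ran from 0.0035 to 0.13, and the call was kept only without RBM47-OE replicate 1. NUDT21 shares 45.9% of its exonic bases with a second gene model on the same strand, ENSG00000288725, which had 242, 347 and 288 counts in NC and 353, 390 and 356 in RBM47-OE, against 3981 to 5352 counts on NUDT21. The log2 fold change of that model was 0.26 (adjusted p = 0.076), and how reads were divided between both genes is not given in the sources used here.

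PCF11, the only CFII subunit of the 10 (ENSG00000165494, chromosome 11, 83156988 to 83187451, plus strand, 16 exons), had 26.8, 25.1 and 26.1 CPM in NC and 25.9, 30.7 and 32.5 in RBM47-OE. RBM47-OE replicates 2 and 3 lay above all NC libraries and replicate 1 lay among them. PCF11 had a log2 fold change of 0.19 (standard error 0.093, adjusted p = 0.11), close to the median of 0.22 of its GC bin, and -0.02 with the GC offset (adjusted p = 0.89).

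How many factors passed depended on RBM47-OE replicate 1. Without it 6 factors were higher, CPSF2, CPSF3, NUDT21, CSTF1, CSTF3 and PCF11, and CPSF1 and CPSF4 were lower, at an adjusted p under 0.05, while 45.3% of all tested genes passed. In that fit the log2 fold change was 0.48 for CPSF2, 0.45 for CSTF3, 0.29 for PCF11, 0.25 for CPSF3, 0.20 for CSTF1, 0.19 for NUDT21, -0.31 for CPSF4 and -0.22 for CPSF1. CSTF2 and CPSF6 were the factors that did not pass, at -0.08 (adjusted p = 0.42) and 0.03 (adjusted p = 0.72).

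**Figure D4:**
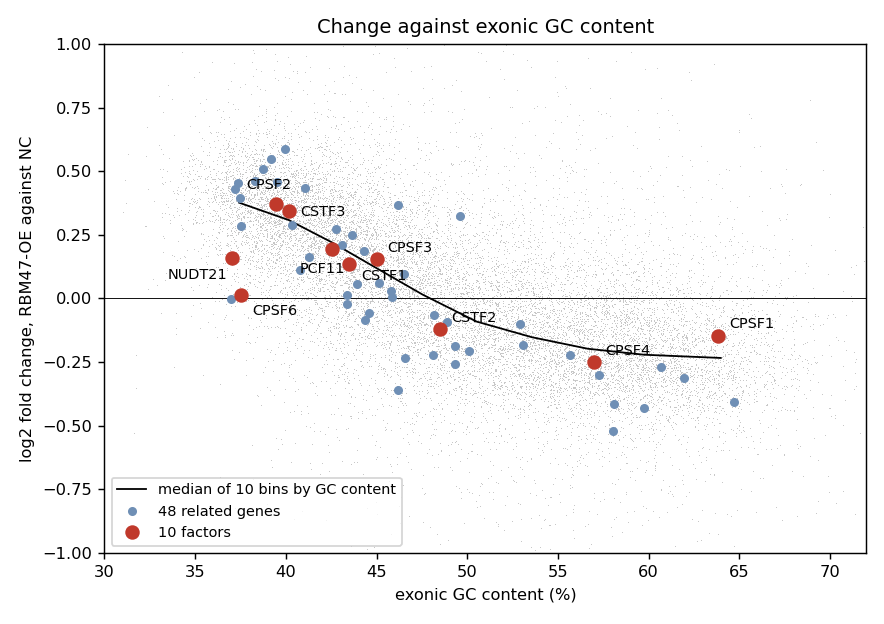
Log2 fold change, RBM47-OE against NC (vertical axis), against exonic GC content in percent (horizontal axis) for the 10 factors (large red points, labelled), 48 related genes (blue points) and all other tested genes (grey), within the plotted range of -1 to 1. The black line joins the medians of 10 bins of all tested genes, and CPSF6 and NUDT21 lie well below it at the low end of GC content.

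Over the 10 factors, Spearman's rho between the log2 fold change and exonic GC content was -0.68, and over all 16229 tested genes with a GC value it was -0.63. These are values across genes that share the same 6 libraries, so they describe these libraries only and carry no p-value. Subunits of one complex differ in GC content, and ratios of their FPKM values were also compared. The ratio of CPSF2 to CPSF4 was 0.417 ± 0.0456 (SD, n = 3) in NC and 0.647 ± 0.129 in RBM47-OE, a log2 difference of 0.62, whereas the log2 fold changes of these genes with the GC offset were 0.06 and -0.06. CSTF2 to CSTF3 went from 1.65 ± 0.106 to 1.20 ± 0.117, a log2 difference of -0.46. NUDT21 to CPSF6, a pair with nearly the same GC content, went from 2.57 ± 0.136 to 2.84 ± 0.0369, a log2 difference of 0.15. The groups did not overlap in 8 of the 10 pairs of subunits compared within CPSF, CstF and CFI, these 3 among them. For each of these 3 ratios an exact two-sided permutation test gave p = 0.10, and 0.125 after adjustment over the 10 pairs. No smaller value than 0.10 is possible for 3 against 3 libraries. How often other pairs of genes separate in this way was not examined. The ratios of CPSF1 to CPSF3 (exact permutation p = 0.40) and of CPSF2 to CPSF3 (exact permutation p = 0.20) overlapped.

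Of the 10 remaining core subunits of the machinery, 4 fell, 1 rose and 5 did not pass. The scaffold SYMPK (log2 fold change -0.30, adjusted p = 0.0016), the phosphatases SSU72 (-0.22, adjusted p = 0.016) and PPP1CA (-0.31, adjusted p = 0.0016) and the CFI subunit CPSF7 (-0.19, adjusted p = 0.047) were lower. PPP1CB, a second catalytic subunit of protein phosphatase 1, was higher (0.55, adjusted p = 2.7e-05). Those that did not pass were the CPSF subunits FIP1L1 (-0.00, adjusted p = 0.98) and WDR33 (0.03, adjusted p = 0.78), CSTF2T (0.01, adjusted p = 0.93), the CFII kinase CLP1 (-0.09, adjusted p = 0.47) and RBBP6 (0.11, adjusted p = 0.30), which passed without RBM47-OE replicate 1 (0.18, adjusted p = 0.039). Their median was -0.05. With the GC offset none of the 4 lower genes passed, with adjusted p-values of 0.17 for SYMPK, 0.65 for SSU72, 0.25 for PPP1CA and 0.11 for CPSF7. PPP1CB stayed higher (0.23, adjusted p = 0.0045). FIP1L1, which has an exonic GC content of 37.0%, was lower (-0.36, adjusted p = 0.00047), as CPSF6 and NUDT21 were. With each library left out in turn in this fit, the adjusted p reached 0.0501 for PPP1CB and 0.0092 for FIP1L1.

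Of 6 poly(A) polymerases and poly(A) binding proteins, the canonical polymerase PAPOLA (0.43, adjusted p = 0.00024) and its relative PAPOLG (0.39, adjusted p = 0.0069) were higher and TUT1, which acts on U6 snRNA and some mRNAs, was lower (-0.52, adjusted p = 0.0011). PABPN1, the nuclear poly(A) binding protein, was at -0.10 (adjusted p = 0.45), and the cytoplasmic PABPC1 and PABPC4 were at 0.06 (adjusted p = 0.58) and -0.13 (adjusted p = 0.15). With the GC offset TUT1 stayed lower (-0.32, adjusted p = 0.041), whereas PAPOLA and PAPOLG were at 0.07 and 0.04 and did not pass (adjusted p = 0.40 and 0.82).

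Among 13 termination factors 4 were higher and 4 lower, with a median log2 fold change of 0.01. Among the lower, the smallest adjusted p belonged to SCAF4, which restrains early polyadenylation (-0.36, adjusted p = 0.0035). Of 14 subunits of Integrator, the complex that cleaves snRNA precursors and nascent transcripts near promoters, 7 rose and 5 fell around a median of 0.19, and the smallest adjusted p in each direction was that of INTS13 (0.59, adjusted p = 3.4e-05) and of INTS1 (-0.41, adjusted p = 0.00024). Of 5 factors of histone mRNA 3′ ends, 2 rose and 1 fell around a median of 0.19, with the smallest adjusted p for CASP8AP2 (0.46, adjusted p = 0.0017) and LSM10 (-0.41, adjusted p = 0.0016).

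The GC offset changed the calls of these 3 lists too. In that fit 4519 of the 16229 genes with a GC value had an unadjusted p under 0.05. No termination factor was higher by edgeR and 4 were lower, with a median of -0.07 and 6 of 13 at an unadjusted p under 0.05, and SCAF4 stayed lower (-0.43, adjusted p = 0.0020). In Integrator 2 subunits rose and 3 fell around a median of -0.02, and both INTS13 (0.29, adjusted p = 0.0036) and INTS1 (-0.18, adjusted p = 0.028) kept their calls. With each library left out in turn under the GC offset, the adjusted p reached 0.033 for INTS13 and 0.14 for INTS1. Of the histone mRNA factors 1 was higher and 0 lower, with a median of 0.04 and 2 of 5 at an unadjusted p under 0.05, and neither CASP8AP2 (0.12, adjusted p = 0.37) nor LSM10 (-0.21, adjusted p = 0.084) passed.

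Of all 48 related genes, 16 were higher and 15 lower, 64.6% in all, against 35.9% of all tested genes, and their median log2 fold change was 0.01. The median exonic GC content was 39.8% for the higher, 55.7% for the lower and 44.6% for those that did not pass, and Spearman's rho between GC content and log2 fold change across the 48 genes was -0.84. With the GC offset 4 were higher and 9 lower, 27.1% in all, against 14.6% of all genes.

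**Figure D5:**
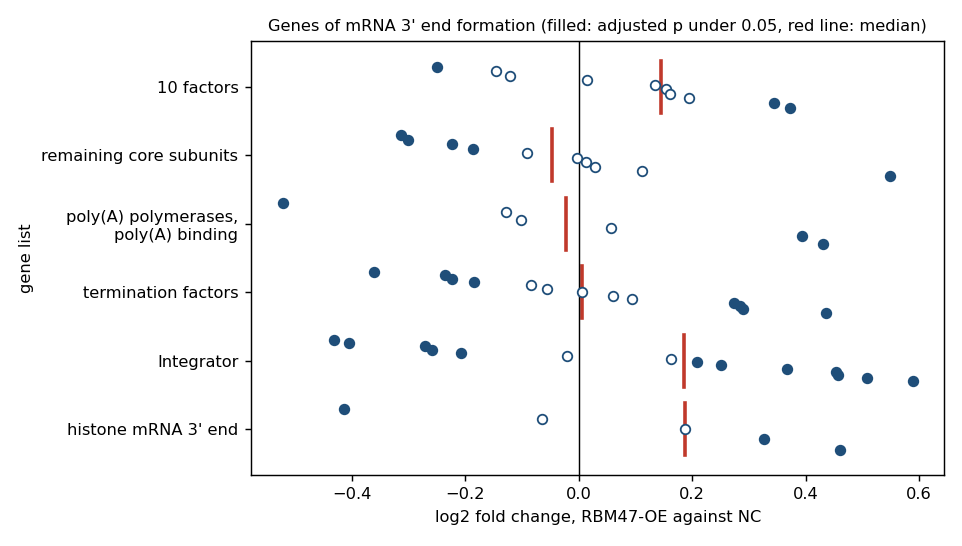
Log2 fold change, RBM47-OE against NC (horizontal axis), for the 10 factors and for the 5 lists of related genes (rows). Each point is a gene, filled where its adjusted p was under 0.05, and the red lines are the medians. The factors lie between -0.25 and 0.37, and filled points are on both sides of 0 in every list.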

How the data were processed

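Reads with more than 2 ambiguous bases or shorter than 16 bases were dropped by the authors, trimmed with FASTX-Toolkit 0.0.13 and aligned to GRCh38 with HISAT2 (4 mismatches). The authors deposited uniquely mapped read counts per gene, without normalization, and FPKM values. The counting tool, annotation release and use of strand are not given in the sources used here, and labels and methods name different library kits.

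Counts of all genes were tested with edgeR 4.0.16 in R 4.3.3 (filterByExpr with a minimum count of 10 and a minimum total of 15, TMM, quasi-likelihood test, condition as the only term), with Benjamini-Hochberg adjustment over 16260 genes. All 10 factors passed the filter. Standard errors were the log2 fold change divided by the root of F. The GC offset was a loess curve (span 0.3) per library on the GC content of GENCODE 44 exons. DESeq2 1.42.0 on the filtered and on all genes, limma 3.58.1 on log2(FPKM + 1) and log2(FPKM + 0.1), and leaving out each library were alternatives. edgeR was tested on simulated data.

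All 10 factors, RBM47, the remaining core subunits, the poly(A) list and, of each other list, the gene with the smallest adjusted p in each direction were named, except 1 gene that is not reported here. Members and lists were chosen with earlier results of these data known.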

Additional observations from a re-analysis of the deposited data

How the results depend on the processing

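At an adjusted p under 0.05, 2 factors were higher and 1 lower by edgeR. These counts became 4 and 0 with library totals, which moved the median of all genes to 0.06. They became 0 and 2 with the GC offset, with or without the replicate block, and 3 and 0 when log2(FPKM + 1) or log2(FPKM + 0.1) values were tested with limma, and 3 and 1 with DESeq2 on all genes. Where 0 were lower with library totals or with either limma pseudocount, 1 was lower at an unadjusted p under 0.05. They were 0 and 0 for limma without a filter, where 3 were higher and 0 lower at an unadjusted p under 0.05. With each library left out, also under the GC offset (added after seeing the data), the counts ran from 0 to 6 higher and from 0 to 2 lower. The related genes gave 4 higher and 9 lower with the GC offset, 5 higher when the block was added to it, 9 lower with library totals, 7 lower for limma with either pseudocount, 7 higher and 6 lower for limma without a filter, and 11 to 18 higher and 8 to 15 lower with each library left out, with 8 lower without NC replicate 2 and 9 without NC replicate 3. The factors at the study's thresholds stayed at 0 and RBM47 stayed called under all 19 alternatives run for them. The share of all tested genes that passed is given above for edgeR, the GC offset and the fit without RBM47-OE replicate 1. It is not given here for the other settings, so their counts cannot be set against such a share.

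Signs turned with the GC offset, first without and then with the replicate block, for CPSF1 (0.081 and 0.081), CPSF6 (-0.33 and -0.33), NUDT21 (-0.19 and -0.20), CSTF1 (-0.042 and -0.041) and PCF11 (-0.021 and -0.022). CPSF6 was at -0.071 with a length offset, and between -0.020 and 0.065 with each library left out of the fit without an offset. When NC replicates 1, 2 and 3 and then RBM47-OE replicates 1, 2 and 3 were left out under the GC offset, CPSF6 was at -0.29, -0.35, -0.35, -0.40, -0.28 and -0.31, and NUDT21 was at -0.19, -0.21, -0.17, -0.26, -0.14 and -0.18. The cause was not tested.

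Nothing states that same-numbered libraries were paired, and their deviations correlated at -0.0596 to -0.0149. With 3 libraries in each group, these correlations cannot exclude a small shared effect. With the replicate as a block, 2 factors were higher and 1 lower, and no call of a factor changed.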
